A study of Mus musculus with 20 samples.

Results

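The 34 genes described here repair DNA double-strand breaks or signal them to the cell cycle. They were taken by symbol from a table of 51123 gene identifiers read from bulk RNA of mouse skin cells sorted by a reporter, and all 34 were found. By role, 9 act in break sensing (Atm, Atr, Rad50, Nbn, Mdc1, Trp53bp1, Rnf8, Rnf168, Rif1) and 4 in the checkpoint (Topbp1, Clspn, Chek1, Chek2). Another 11 act in homologous recombination (Brca1, Brca2, Bard1, Palb2, Rad51ap1, Rad54l, Xrcc2, Xrcc3, Exo1, Blm, Wrn), 5 belong to the Fanconi group (Fanca, Fancb, Fancd2, Fanci, Brip1) and 5 to end joining (Xrcc4, Xrcc5, Xrcc6, Prkdc, Lig4).

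The 20 libraries fall into 7 groups of cells sorted for the tdTomato reporter. Young epidermis, from mice of 100 to 120 days, came from wild-type (WT), K14cre;Wwoxfl/fl (WKO), K14cre;p53fl/fl (PKO) and K14cre;Wwoxfl/fl;p53fl/fl (DKO) mice, with 3 libraries each. Old WT epidermis came from mice of 400 days or more and has 2 libraries. Cutaneous squamous cell carcinomas (cSCC), 3 from PKO and 3 from DKO mice, arose spontaneously, and the labels give no age for their hosts. K14cre expresses Cre recombinase in keratinocytes, so the floxed alleles of Wwox, a putative tumour suppressor at a fragile site, and of Trp53, the gene of p53, are removed there and not in other skin cells. The titles of the WT samples name no Cre, and a group has no more than 3 biological replicates.

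A broken chromosome is first bound by the complex of Mre11, Rad50 and Nbn, which activates the kinase Atm. Atr answers single-stranded DNA, including that at stalled replication forks, and acts through Chek1 with the help of Topbp1 and Clspn. Mdc1, Rnf8, Rnf168, Trp53bp1 and Rif1 mark and shape the chromatin around the break. Recombination copies the lost sequence from the sister chromatid and is therefore used in S and G2 phase, while end joining rejoins the ends at any phase, and the Fanconi proteins open the way for repair of crosslinked DNA. Many recombination, Fanconi and checkpoint genes are transcribed mainly in dividing cells, which in epidermis are cells of the basal layer.

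Shown are the promoters of 4 members called higher in PKO cSCC against old WT, those with the smallest p-values that RefSeq's table held. Each line holds the 250 bases before the annotated start from RefSeq's table for GRCm38.p6, read 5′ to 3′ on the gene's strand, and capitals mark matches to the 3 motifs searched. The stretch of Rad51ap1 is chr6:126939588-126939837 on the minus strand and that of Rad54l is chr4:116123691-116123940 on the minus strand. That of Xrcc6 is chr15:82016119-82016368 on the plus strand and that of Clspn is chr4:126556730-126556979 on the plus strand.
Rad51ap1: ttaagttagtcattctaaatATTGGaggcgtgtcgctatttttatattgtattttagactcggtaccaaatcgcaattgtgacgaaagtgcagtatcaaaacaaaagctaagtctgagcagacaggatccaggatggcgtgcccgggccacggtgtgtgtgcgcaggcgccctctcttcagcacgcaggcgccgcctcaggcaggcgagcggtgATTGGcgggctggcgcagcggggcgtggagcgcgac
Rad54l: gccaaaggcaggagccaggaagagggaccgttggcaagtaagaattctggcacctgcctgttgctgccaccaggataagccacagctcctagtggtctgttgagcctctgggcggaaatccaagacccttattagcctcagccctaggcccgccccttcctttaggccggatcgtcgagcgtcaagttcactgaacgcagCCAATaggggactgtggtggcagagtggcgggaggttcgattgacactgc
Xrcc6: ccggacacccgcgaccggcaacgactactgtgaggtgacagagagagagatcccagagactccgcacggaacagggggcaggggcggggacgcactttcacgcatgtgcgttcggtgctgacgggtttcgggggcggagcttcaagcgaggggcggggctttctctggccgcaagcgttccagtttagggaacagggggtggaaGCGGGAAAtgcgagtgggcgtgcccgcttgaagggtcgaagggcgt
Clspn: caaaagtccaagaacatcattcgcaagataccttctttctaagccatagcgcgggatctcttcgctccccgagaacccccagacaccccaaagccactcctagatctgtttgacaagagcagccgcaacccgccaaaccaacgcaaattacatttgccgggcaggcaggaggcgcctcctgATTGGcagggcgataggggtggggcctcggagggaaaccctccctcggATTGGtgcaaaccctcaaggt

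On either strand, the letters searched were TTTCGCGC, TTTGGCGC, TTTCCCGC and TTTGCCGC for E2F, the factors that drive S phase genes, CCAAT for the CCAAT box, and TTTGAA and TTCGAA for the cell cycle homology region (CHR) of G2/M genes. Among members, only in Rnf8 did matches of different motifs share a base, between a CCAAT box and a CHR match. The table held 26 of the 34 members. An E2F match was in 6 of these 26 (23.1%), namely Bard1, Brca2, Chek2, Mdc1, Topbp1 and Xrcc6, against 1.91% of 27025 promoters. A CCAAT box was in 14 of 26 (53.8%) against 34.5%, and a CHR match was in 3 of 26 (11.5%) against 17.4%. In the stretches above, Rad51ap1 and Clspn hold 2 CCAAT boxes each, Rad54l holds 1 and Xrcc6 holds 1 E2F match.

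Libraries held 11930153 to 17199262 counts, and mitochondrial ribosomal RNA took 15% to 40.9% of them. The 34 members summed to 5135 to 12979 counts in a library, none was at 0 in any library, and all 34 passed the low-count filter. Wwox was at 0.137 to 1.29 CPM (counts scaled to library size) in WKO young against 8.75 to 10.04 in WT young, and Trp53 was at 0.865 to 4.38 CPM in PKO cSCC against 25.7 to 34.6 in old WT. Some libraries went against their labels. The library labelled DKO young 3 had 7.34 CPM of Wwox and 21.1 CPM of Trp53, where DKO young 1 and 2 had 0.926 and 0.944 of Wwox and 3.31 and 3.27 of Trp53. Trp53 was at 45.5 CPM in the library labelled DKO cSCC 3 against 2.74 and 2.86 in DKO cSCC 1 and 2, with Wwox low at 1.87. PKO young 2 and 3 kept 21.8 and 19.2 CPM of Trp53 against 5.90 in PKO young 1. Basal keratinocyte markers such as Krt5 and Krt14 were present in every library.

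Break sensing genes varied within narrow limits over the study, while Fanconi genes and most recombination and checkpoint genes varied more widely. The ratio of the highest to the lowest group mean ran from 1.12 for Mdc1, a scaffold at broken ends, to 12.4 for Rad51ap1, which promotes strand pairing in recombination. It was above 2 for 19 of 34 members and above 4 for 11. It was below 2 for all 9 break sensing genes and also for Topbp1, Brca2, Wrn, Xrcc4, Xrcc5 and Prkdc. Per kilobase of merged annotated exons, the mean over groups was highest for Rad50 (10.1 CPM per kb) and Nbn (9.54) and lowest for Palb2 (0.402), the link between Brca1 and Brca2.

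**Figure D1:**
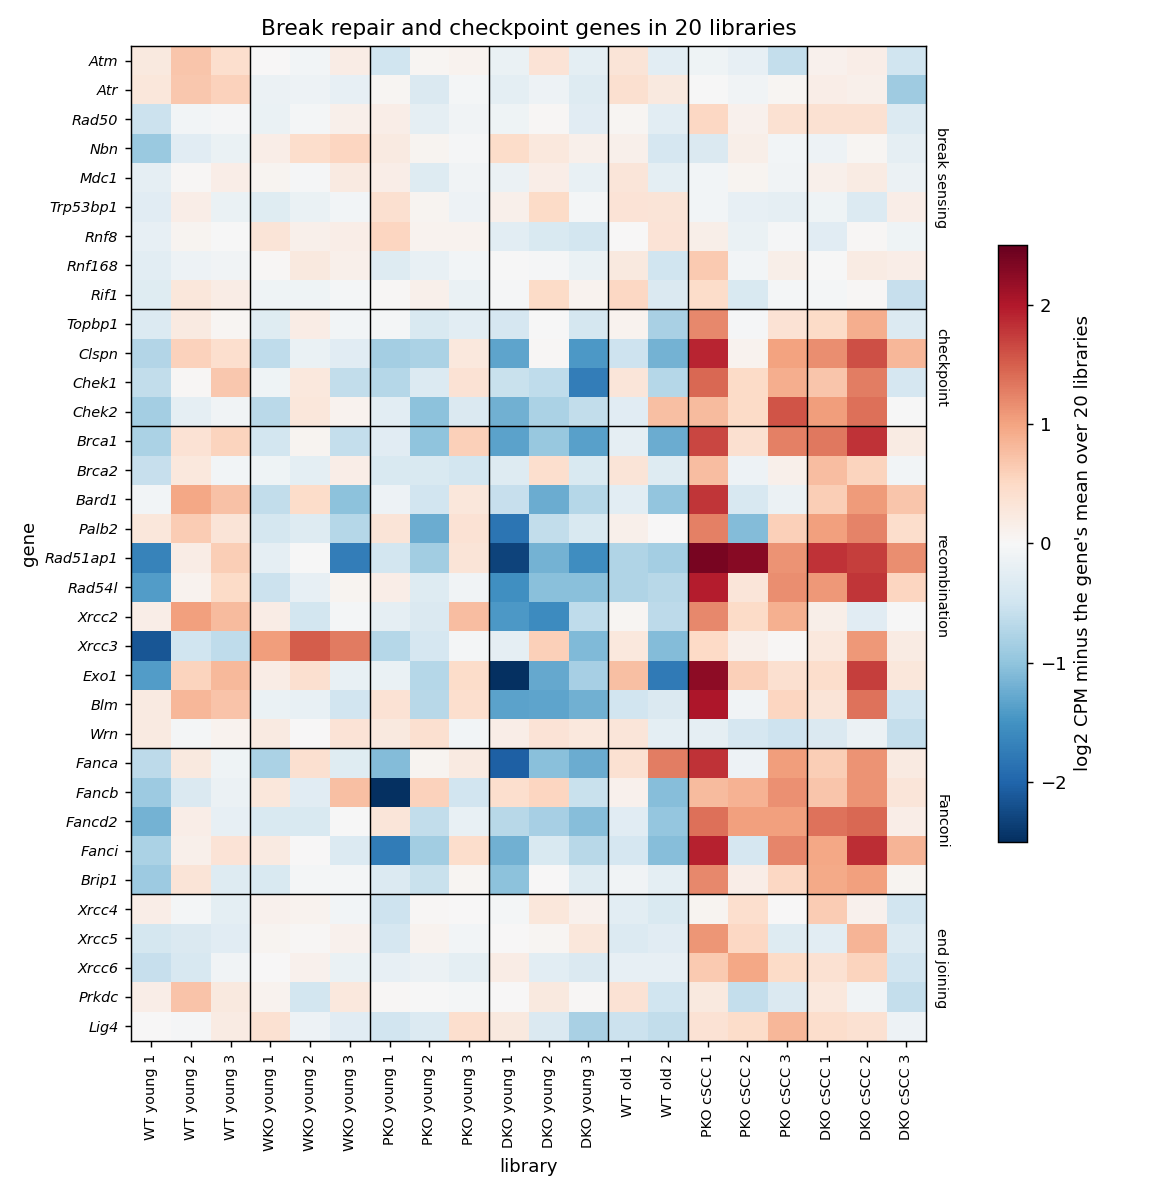
Level of each of the 34 genes (rows, by role) in each of the 20 libraries (columns, by group), as log2 CPM minus the gene's mean over the 20 libraries. Red marks most recombination, Fanconi and checkpoint genes in the carcinomas, most of all in PKO cSCC 1, while break sensing genes stay pale.

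PKO cSCC was the highest group for 17 of 34 members and DKO cSCC for 7. DKO young was the lowest group for 16. A single library, PKO cSCC 1, was the highest of all 20 for 17 members, and within the PKO tumours it was the highest for 26. Among the DKO tumours the library labelled DKO cSCC 3 was the lowest for 29.

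Summed by role, only the Fanconi genes separated every tumour library from every epidermis library. Their sum was 20.3 to 46.3 CPM in the 6 tumours and 8.80 to 18.2 CPM in the 14 epidermis libraries. Checkpoint genes summed to 82.9 to 217.1 CPM in tumours and 53.1 to 102.0 in epidermis, and recombination genes to 72.3 to 171.3 against 49.4 to 90.9, so both overlapped. Break sensing genes summed to 296.1 to 398.8 CPM in tumours and 292.3 to 422.0 in epidermis. End joining genes summed to 55.1 to 114.5 CPM against 59.4 to 85.0. In sorted bulk cells, fewer cells of a type and less RNA per cell cannot be told apart.

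**Figure D2:**
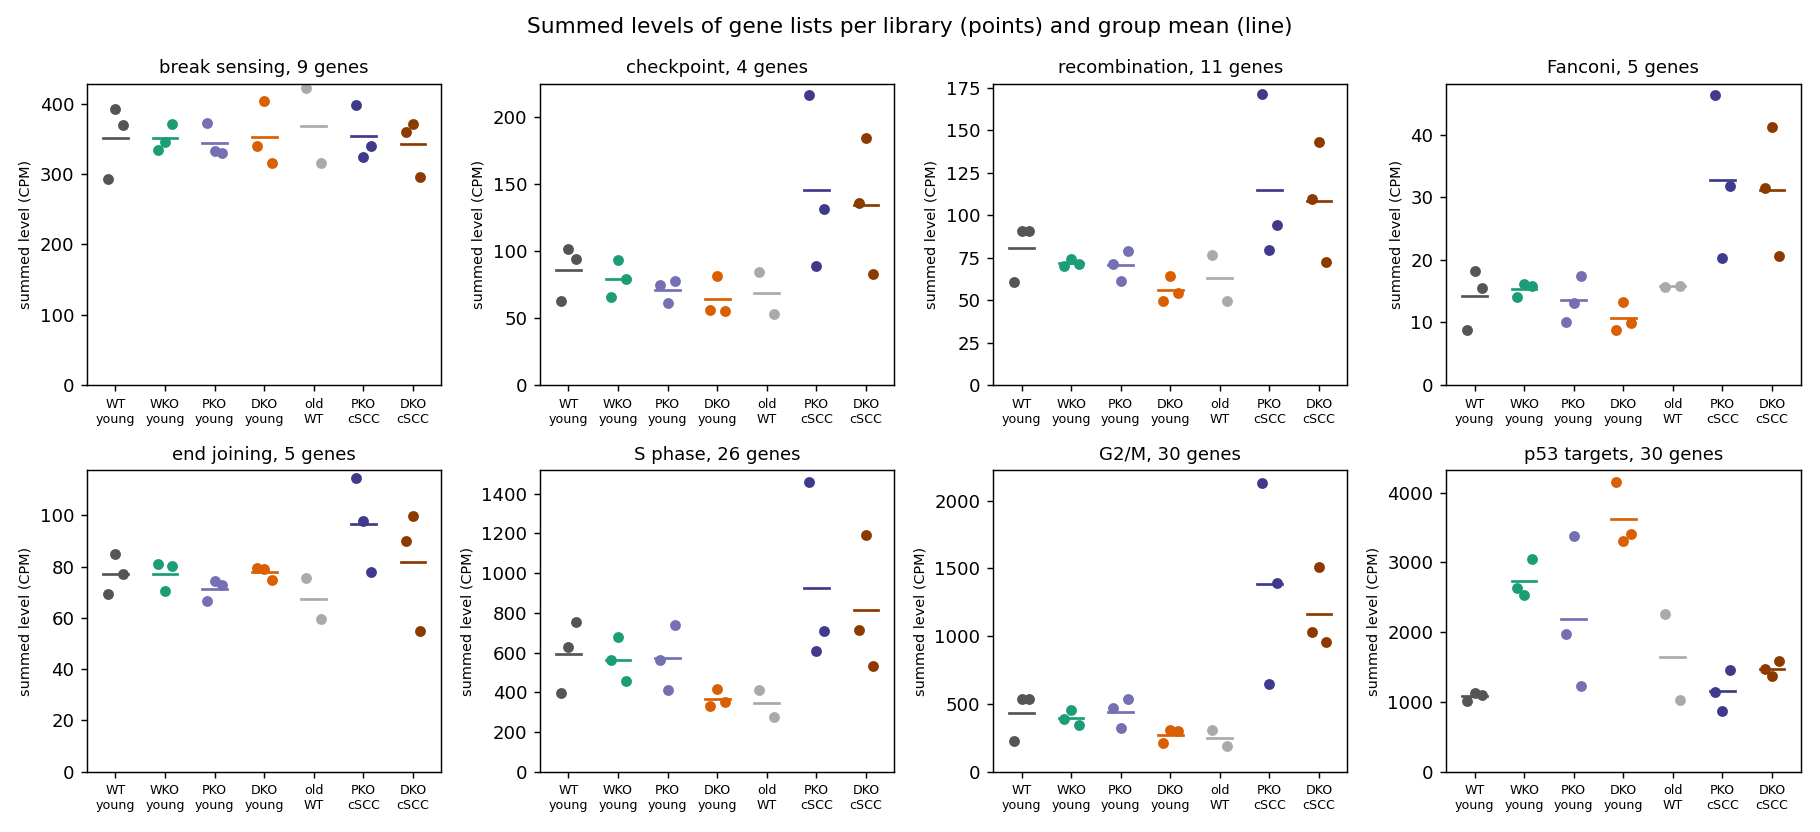
Summed CPM of each role and of 3 other gene lists (vertical axes) in every library by group, with points for libraries and lines for group means. The Fanconi and G2/M sums are higher in all 6 carcinomas than in any of the 14 epidermis libraries, whereas the break sensing sums overlap across groups.

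Carcinomas of PKO mice were first set against old WT epidermis, which asks how the tumours differ from skin of old mice. In PKO cSCC 7 of 34 members rose and none fell, where 10.5% of the 18164 genes tested rose and 10.9% fell, 21.3% in all (edgeR quasi-likelihood test, Benjamini-Hochberg adjusted p under 0.05). The risen genes were Rad51ap1, Rad54l and Brca1 in recombination, Fancd2 in the Fanconi group, Clspn in the checkpoint, and Xrcc6 and Lig4 in end joining. The median log2 fold change was 0.78 over the members and -0.09 over all genes, and 26 of 34 were positive. By role the medians were 1.35 for recombination, 1.30 for Fanconi, 1.01 for checkpoint, 0.86 for end joining and -0.10 for break sensing.

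Rad51ap1 stood at 13.6, 12.6 and 5.71 CPM in PKO cSCC 1, 2 and 3, and at 1.56 and 1.44 CPM in old WT. It was the only member with all 6 tumour libraries above all 14 epidermis libraries, the lowest tumour being at 5.71 CPM and the highest epidermis library at 4.01. The share of all genes set apart in this way is not given here. The log2 fold change of Rad51ap1 in PKO cSCC was 2.82 ± 0.70 (SE, adjusted p = 0.0121). Counts behind these levels are modest, with 99 to 218 reads in PKO cSCC and 19 in each old WT library.

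Rad54l, a motor protein of recombination, stood at 13.5, 4.29 and 7.72 CPM in PKO cSCC and 2.05 and 2.13 CPM in old WT. On the log2 scale the change was 2.02 ± 0.57 (SE, adjusted p = 0.0221). Brca1, a tumour suppressor that directs ends into recombination, stood at 30.6, 12.6 and 23.1 CPM against 8.21 and 4.10 CPM. The groups did not overlap for either gene, and for Brca1 the log2 fold change was 1.84 ± 0.58 (SE, adjusted p = 0.0348).

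Fancd2, the Fanconi protein that is tagged with ubiquitin at a crosslink, was even among the PKO tumours at 8.03, 6.32 and 6.34 CPM against 2.55 and 1.60 CPM in old WT. The change came to a log2 value of 1.73 ± 0.48 (SE, adjusted p = 0.0195). Clspn, which brings Chek1 to Atr, spread more widely, at 56.6, 16.0 and 30.1 CPM against 10.6 and 6.69 CPM. The fitted log2 change was 1.99 ± 0.59 (SE, adjusted p = 0.0281), and the groups of both genes were apart.

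Of the end joining genes, Xrcc6, a subunit of the Ku ring that binds free ends, stood at 32.2, 40.3 and 28.6 CPM in PKO cSCC and 17.8 CPM in both old WT libraries. The log2 fold change was 0.92 ± 0.27 (SE, adjusted p = 0.0271). Lig4, the ligase that seals the joined ends, stood at 5.33, 5.74 and 7.38 CPM against 2.87 and 2.74 CPM. On the log2 scale the change was 1.13 ± 0.39 (SE, adjusted p = 0.0481), the highest p of the 7 calls. Xrcc5, the other Ku subunit, did not pass, at 37.3, 24.6 and 13.8 CPM against 13.6 and 14.1.

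The other 27 members did not pass the test, and at an unadjusted p under 0.05 there were 14 members against 36.9% of all genes. Of all 34, 14 had every PKO tumour above both old WT libraries and 2, Trp53bp1 and Atr, had every PKO tumour below them, where 20.6% and 23.9% of all genes did so. Trp53bp1, which holds ends back from resection, stood at 49.4, 45.3 and 44.6 CPM against 65.5 and 64.8.

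The calls against old WT rest on few libraries. None of the 7 calls was left without old WT 1 or without old WT 2, and 3 were left without PKO cSCC 1. In a fit of only the 8 tumour and old WT libraries no member was called, and the 7 adjusted p-values ran from 0.0564 for Rad51ap1 to 0.135 for Xrcc6 and Lig4 with log2 fold changes of 1.002 to 2.89. The PKO tumours and old WT also differed in Xist, at 0 to 1.499 CPM against 764.0 to 1125, and in the Y-linked gene Eif2s3y, at 20 to 25.6 CPM against 0, so sex and tumour cannot be told apart here.

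DKO cSCC had no member called against old WT by edgeR, where 2.48% of all genes rose and 1.86% fell, 4.34% in all. At an unadjusted p under 0.05 there were 8 members, all higher, against 22.9% of all genes. DESeq2 called 6 members, all higher, and the share of all genes that it called is not given here. Fancd2 had 7.92 CPM (DKO cSCC 1), 8.35 CPM (DKO cSCC 2) and 3.48 CPM in the library labelled DKO cSCC 3. Its log2 fold change against old WT was 1.67 ± 0.48 (SE, adjusted p = 0.0576). Rad51ap1 was measured in DKO cSCC 1 and 2 at 9.18 and 8.66 CPM, and the library labelled DKO cSCC 3 had 5.89, with a log2 change of 2.39 (standard error 0.68, adjusted p = 0.0577). Clspn had 34 CPM (DKO cSCC 1), 46.4 CPM (DKO cSCC 2) and 26.8 CPM in the library labelled DKO cSCC 3, with a log2 change of 2.05 (standard error 0.60, adjusted p = 0.0604). All 3 genes were higher in every DKO tumour library than in both old WT libraries, as were 11 of the 34 members against 16.8% of all genes, while 2 were lower against 17%. The median over members was 0.55 against -0.03 over all genes. Without the library labelled DKO cSCC 3, 5 members were called higher, and without it and the library labelled DKO young 3 the count was also 5. The shares of all genes called in these 2 fits are not given here.

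**Figure D3:**
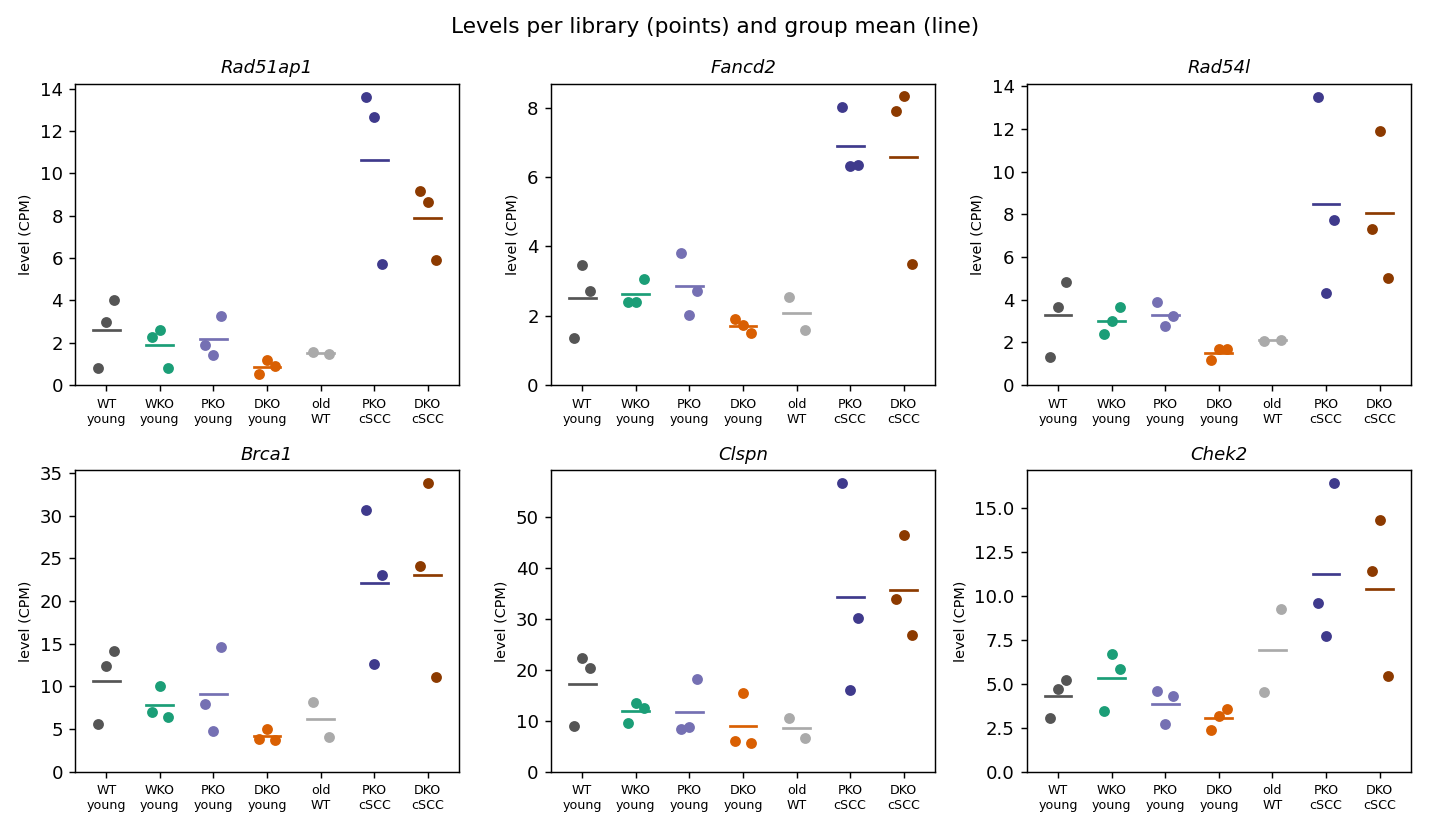
CPM (vertical axes) of 6 members in every library by group, with points for libraries and lines for group means. Rad51ap1 is higher in all 6 carcinomas (5.71 to 13.6 CPM) than in any epidermis library, while the other 5 genes overlap with at least 1 epidermis library.

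Each carcinoma was then set against young epidermis of the same genotype. In PKO 3 of 34 members rose and none fell, where 5.33% of all genes rose and 6.16% fell, 11.5% in all. In DKO 8 rose and none fell, where 3.27% of all genes rose and 4.03% fell, 7.3% in all. Rad51ap1 and Chek2 were called in both, Xrcc6 in PKO alone, and Rad54l, Brca1, Fancd2, Clspn, Fanca and Blm in DKO alone. Median log2 fold changes were 0.72 in PKO and 0.59 in DKO over the members, and -0.02 and 0.05 over all genes. At an unadjusted p under 0.05 there were 15 members in PKO against 28.5% of all genes, and 16 in DKO against 24.7%. In PKO 11 members had every tumour above every young library and 1 had every tumour below, against 12.9% and 12.3% of all genes. In DKO the counts were 16 and 2, against 14.2% and 16%.

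Chek2, the kinase that Atm activates, stood at 9.57, 7.72 and 16.4 CPM in PKO cSCC and at 4.61, 2.69 and 4.31 CPM in PKO young. Its log2 fold change there was 1.53 ± 0.43 (SE, adjusted p = 0.0314). In DKO it stood at 11.4 and 14.3 CPM in cSCC 1 and 2, at 5.45 CPM in the library labelled DKO cSCC 3, against 2.38 to 3.57 CPM in young epidermis. All tumours lay above all young libraries in both genotypes, and the DKO log2 fold change was 1.77 ± 0.43 (SE, adjusted p = 0.0232). Old WT 2, at 9.27 CPM, was above 2 of the 6 tumour libraries.

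Rad51ap1 was at 1.91, 1.43 and 3.25 CPM in PKO young and rose by a log2 change of 2.26 (standard error 0.57, adjusted p = 0.0217) in PKO cSCC. It was at 0.529 and 1.16 CPM in DKO young 1 and 2 and 0.893 CPM in the library labelled DKO young 3, which are 8, 16 and 9 counts. The DKO log2 fold change was 3.19 ± 0.61 (SE, adjusted p = 0.00828), the highest of any member in any comparison. Xrcc6 stood at 17.8, 18.7 and 17.4 CPM in PKO young, below all PKO tumours, and its log2 fold change was 0.91 ± 0.24 (SE, adjusted p = 0.0249).

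In DKO, Brca1 stood at 24.1 and 33.8 CPM in cSCC 1 and 2, 11.1 CPM in the library labelled DKO cSCC 3, against 3.77 to 5.01 CPM in young epidermis. The change came to a log2 value of 2.45 ± 0.51 (SE, adjusted p = 0.0113). Rad54l stood at 7.33 and 11.91 CPM in cSCC 1 and 2, 5.00 CPM in the library labelled DKO cSCC 3, against 1.19 to 1.69 CPM in young epidermis, with a log2 change of 2.41 (standard error 0.50, adjusted p = 0.0110). Both genes were apart between the groups, with the library labelled DKO cSCC 3 the lowest tumour each time.

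Fanca, a subunit of the Fanconi core ligase, stood at 5.04 and 7.11 CPM in DKO cSCC 1 and 2, 3.84 CPM in the library labelled DKO cSCC 3, against 0.794 to 1.60 CPM in DKO young. The fitted log2 change was 2.08 ± 0.54 (SE, adjusted p = 0.0290). Blm, the helicase lost in Bloom syndrome, stood at 8.52 and 17.6 CPM in DKO cSCC 1 and 2, 4.91 CPM in the library labelled DKO cSCC 3, against an even 2.71 to 2.98 CPM in DKO young. The log2 fold change was 1.87 ± 0.51 (SE, adjusted p = 0.0382). Fancd2 was at 1.92 and 1.74 CPM in DKO young 1 and 2 and 1.49 CPM in the library labelled DKO young 3, below all DKO tumours. It rose by 1.93 ± 0.42 on the log2 scale (SE, adjusted p = 0.0130) and Clspn by 1.98 ± 0.51 (SE, adjusted p = 0.0289). For Clspn the nearest libraries were DKO young 2 at 15.5 CPM and the library labelled DKO cSCC 3 at 26.8.

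Wrn, the helicase lost in Werner syndrome, did not pass in either genotype and was singled out after its values were seen because every tumour lay below every PKO and DKO young library. It stood at 14.4 to 19.6 CPM in the 6 tumours and 20.7 to 28.8 CPM in PKO and DKO young. Its log2 fold changes were -0.59 (adjusted p = 0.0509) in PKO and -0.62 (adjusted p = 0.0564) in DKO, and no other recombination gene was negative in both. In all, 27 members were positive in both genotypes, 5 (Atm, Nbn, Trp53bp1, Wrn and Prkdc) were negative in both and 2 (Rnf8 and Rif1) differed in sign.

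**Figure D4:**
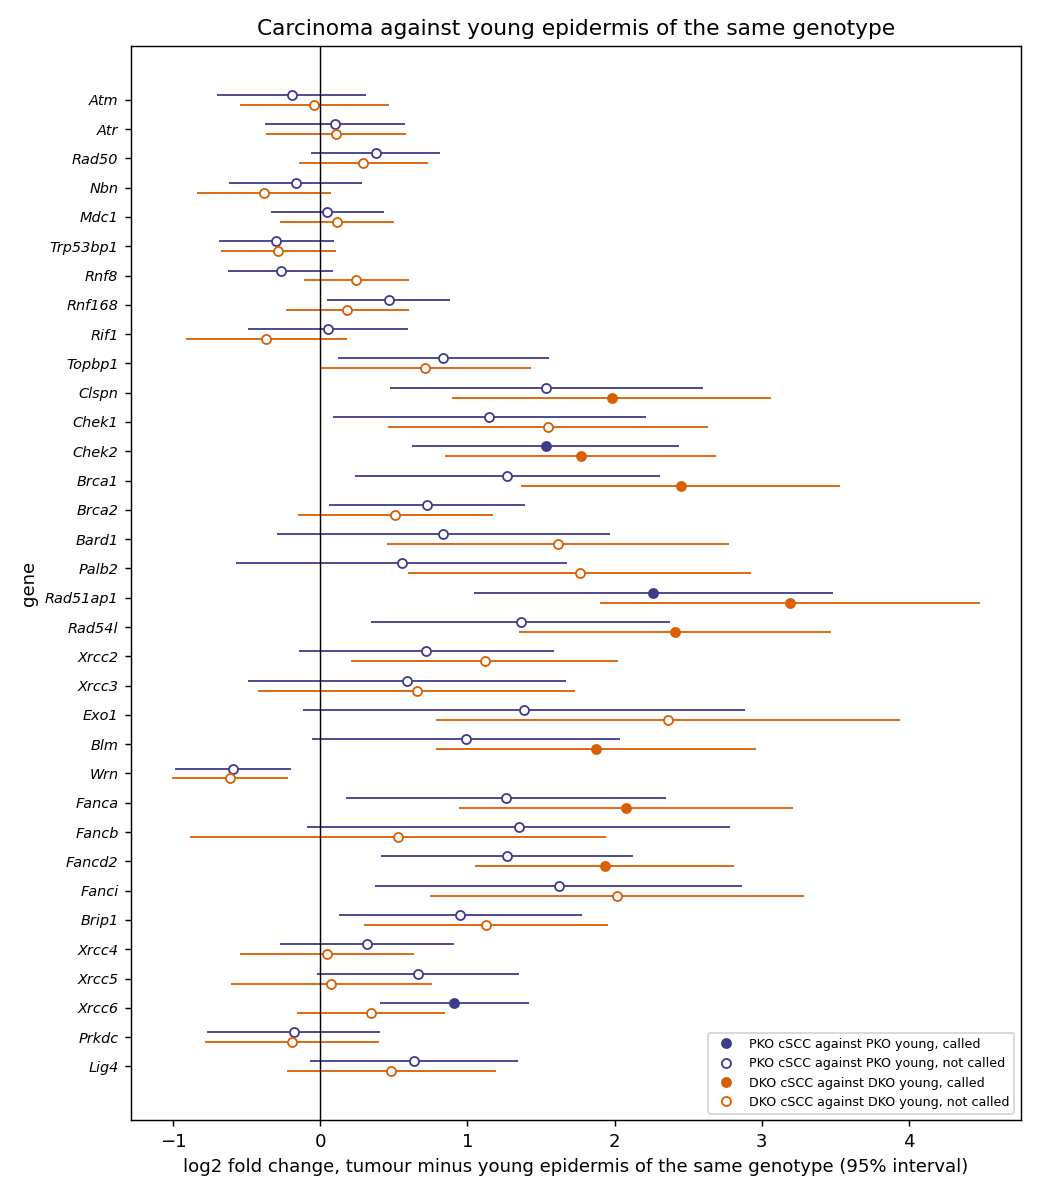
Log2 fold change of each member (horizontal axis, with its 95% interval) for carcinoma against young epidermis of the same genotype, PKO in blue and DKO in orange, filled where the adjusted p is under 0.05. Intervals of break sensing genes lie near 0, and filled points reach from 0.91 for Xrcc6 in PKO to 3.19 for Rad51ap1 in DKO.

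The members not described so far also overlapped between tumours and epidermis. Topbp1, which activates Atr, ranged over 48.0 to 141.1 CPM in the 6 tumours and 35.0 to 71.2 in the 14 epidermis libraries, and Chek1, the kinase below Atr, over 2.68 to 9.79 CPM and 1.09 to 5.76 in the same order. Fanci, the partner of Fancd2, ranged over 2.61 to 13.3 CPM in the 6 tumours and 1.05 to 4.78 in the 14 epidermis libraries. Brip1, a helicase that binds Brca1, ranged over 4.82 to 10.6 CPM in the 6 tumours and 2.25 to 5.72 in the 14 epidermis libraries. Their highest values came from PKO cSCC 1. Brca2, a tumour suppressor of the recombination pathway, ranged over 11.89 to 22.3 CPM in the 6 tumours and 8.68 to 17.3 in the 14 epidermis libraries. Prkdc, the large kinase of end joining, ranged over 18.6 to 33.6 CPM in the 6 tumours and 20.1 to 46.0 in the 14 epidermis libraries, and Xrcc4, the partner of Lig4, over 4.37 to 9.48 CPM and 4.24 to 7.40. In the break sensing group, Rad50 ranged over 42.2 to 76.2 CPM in the 6 tumours and 36.9 to 60.4 in the 14 epidermis libraries, while Rif1 was at 41.2 to 84.1 CPM in the 6 tumours and 47.4 to 87.8 in the 14 epidermis libraries.

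The counts of calls against young epidermis of the same genotype depended on single libraries. For the fits that follow, the shares of all genes called are not given here. In PKO no call was left without PKO young 1 or without PKO young 2, 1 was left without PKO cSCC 1, and 6 were made without PKO cSCC 2. Without PKO young 2 and 3, which keep Trp53, 1 member was called, and none of the 3 calls was kept. In DKO no call was left without DKO young 1, and 4, 5, 4 and 1 were made without DKO young 2, the library labelled DKO young 3, DKO cSCC 1 and DKO cSCC 2 in turn, and 12 without the library labelled DKO cSCC 3. Without the libraries labelled DKO young 3 and DKO cSCC 3 there were 7, and a fit of the 12 PKO and DKO libraries called 1 member in PKO and 4 in DKO. Xist was at 322 to 601 CPM in the 3 PKO young libraries and 0 to 1.499 CPM in the 3 PKO tumours, so sex and tumour cannot be told apart in PKO. In DKO, Eif2s3y was at 0 CPM in the 3 young libraries and in cSCC 1, at 26.8 CPM in cSCC 2 and at 23.8 CPM in the library labelled DKO cSCC 3. Sex and tumour therefore cannot be fully told apart in DKO, nor against old WT, where Eif2s3y was at 0.

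G2/M genes rose in all 4 comparisons of carcinoma with epidermis, and S phase genes rose less evenly. Of 30 G2/M genes, such as the mitotic regulators Ube2c and Birc5, 28 rose in PKO cSCC against old WT, 23 in DKO cSCC against old WT, 23 in PKO cSCC against PKO young and 25 in DKO cSCC against DKO young. Of 26 S phase genes, such as the nucleotide enzyme Rrm2 and the clamp Pcna, 15, 4, 1 and 10 rose in the same order. Over all genes tested the shares that rose were 10.5%, 2.48%, 5.33% and 3.27%, so the single S phase gene in PKO cSCC against PKO young is no more than that background. None of either list fell in these 4 comparisons. S phase genes summed to 533.1 to 1458 CPM in tumours and 277.0 to 751.6 in epidermis, and G2/M genes to 648.1 to 2127 against 191.9 to 536.7. PKO cSCC 1 had the highest sum of both lists, as it did of the members.

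With the mean log2 CPM of these 56 genes as a covariate, no member was called in any of the 4 comparisons of carcinoma with epidermis. The share of all genes called in that fit is not given here, so this count is not read as a trait of the members. The members' median log2 fold changes became -0.55, -0.49, -0.15 and -0.24 in the order above, where those over all genes were -0.04, 0.03, -0.03 and 0.05. In PKO cSCC against old WT the log2 fold changes of Clspn, Brca1 and Rad54l became -0.57 ± 0.54, -0.75 ± 0.42 and -0.38 ± 0.60 (SE). Those of Fancd2, Xrcc6, Lig4 and Rad51ap1 stayed above 0, that of Rad51ap1 at 0.99 ± 0.85 (SE). In DKO cSCC against DKO young Rad51ap1 went from 3.19 to 1.65 ± 0.75 (SE, adjusted p = 0.434), and its call was lost. The covariate itself did not overlap between tumours and epidermis. Its lowest tumour value was 4.04, in the library labelled DKO cSCC 3, and its highest epidermis value was 3.88, in PKO young 3. At no score were both tissues present, so the 2 effects cannot be told apart by this fit. Group means of the covariate were 4.76 ± 0.71 and 4.52 ± 0.50 (SD, n = 3) in PKO and DKO cSCC and 2.65 to 3.48 in the 5 epidermis groups.

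Markers of other cells moved as well. The 8 T cell markers added up to 13.95 to 77.6 CPM in tumours and 44.2 to 3251 in epidermis. Nkg7 was the only one of the 8 at 0 in any library of the study, in 1 library. Erythrocyte markers (6 genes) summed to 0.963 to 16.2 CPM in tumours and 2.83 to 3498 in epidermis, with 3 of the 6 at 0 in some library. Fibroblast markers (7 genes) overlapped, at 27.4 to 899.9 CPM in tumours and 6.97 to 2701 in epidermis. The library labelled DKO cSCC 3 stood apart from DKO cSCC 1 and 2 in several lists. Its endothelial markers took 444.8 CPM against 35.0 and 62.7, its differentiated keratinocyte markers 14005 against 428.6 and 2539, its Langerhans markers 2315 against 247.8 and 715.0, and its melanocyte markers 529.7 against 15.7 and 14.2. The part of all these markers in the results on tumours was not tested.

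Loss of Wwox beside p53 was asked about by comparing DKO with PKO carcinomas. No member was called, where 0.011% of all genes were, and 1 had an unadjusted p under 0.05, against 14.5% of all genes. DESeq2 called none either. That gene was Xrcc2, a recombination gene, at 2.37 and 1.78 CPM in DKO cSCC 1 and 2, 2.14 CPM in the library labelled DKO cSCC 3, against 4.97, 3.02 and 3.98 CPM in PKO cSCC. It was the 1 member whose groups did not overlap, where 5.44% of all genes were lower in every DKO tumour and 7.95% higher, and its log2 fold change was -0.92 ± 0.41 (SE, adjusted p = 0.319), with a 95% interval of -1.80 to -0.05. Xrcc6 had a log2 change of -0.50 (standard error 0.24, adjusted p = 0.351) and Xrcc5 one of -0.36 (standard error 0.32, adjusted p = 0.646). Without PKO cSCC 1 the value for Xrcc5 was 0.03. DKO cSCC 1 had 466.6 CPM of Xist, where the PKO tumours had 0 to 1.499 CPM, and the part of sex in this comparison was not tested.

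The intervals show the precision that 3 tumours of each kind allow. For the 9 break sensing genes every 95% interval lay between -0.77 and 0.75 on the log2 scale. For Brca1 it ran from -0.96 to 1.08, for Clspn from -0.98 to 1.10 and for Exo1, the nuclease that resects ends, from -1.83 to 1.12. With 3 libraries a group, a difference of a size inside these intervals cannot be told from none.

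The tumour effect in DKO minus that in PKO was also tested as a difference of differences. No member was called and none of all 18164 genes was (0%). An unadjusted p under 0.05 was found for 1 member against 12.6% of all genes, and DESeq2 called none. Rnf8, a ubiquitin ligase at breaks, had a difference of 0.51 ± 0.24 (SE, adjusted p = 0.388). For Brca1 the difference was 1.18 ± 0.69 (SE, adjusted p = 0.508) and for Xrcc6 -0.56 ± 0.34 (SE, adjusted p = 0.519). Members called in DKO alone are therefore not shown to differ from PKO.

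In young epidermis few members passed the test on loss of Wwox. In WKO 2 of 34 rose and none fell, where 7.9% of all genes rose and 4.21% fell, 12.1% in all. Xrcc3, which acts in recombination, stood at 3.95, 5.47 and 4.71 CPM in WKO and 0.437, 1.36 and 1.24 CPM in WT, with a log2 change of 2.21 (standard error 0.53, adjusted p = 0.0200). No library of another group passed 4.10 CPM of Xrcc3, and WKO was its highest group. Nbn stood at 26.7, 32.2 and 34.2 CPM in WKO and 12.4, 19.4 and 21.2 CPM in WT, with a log2 change of 0.81 (standard error 0.21, adjusted p = 0.0288). Atr did not pass, at 16.7, 16.97 and 16.0 CPM against 22.5, 29.7 and 27.8, with a log2 change of -0.69 (standard error 0.22, adjusted p = 0.0567). The groups were apart for all 3 genes. In all, 5 members were higher and 4 lower in every WKO than in every WT library, against 24.5% and 25% of all genes, and 3 had an unadjusted p under 0.05 against 30.5%. The members' median was -0.03 against -0.04 over all genes. No call was left without WT young 1, WT young 2, WKO young 2 or WKO young 3, each in turn.

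**Figure D5:**
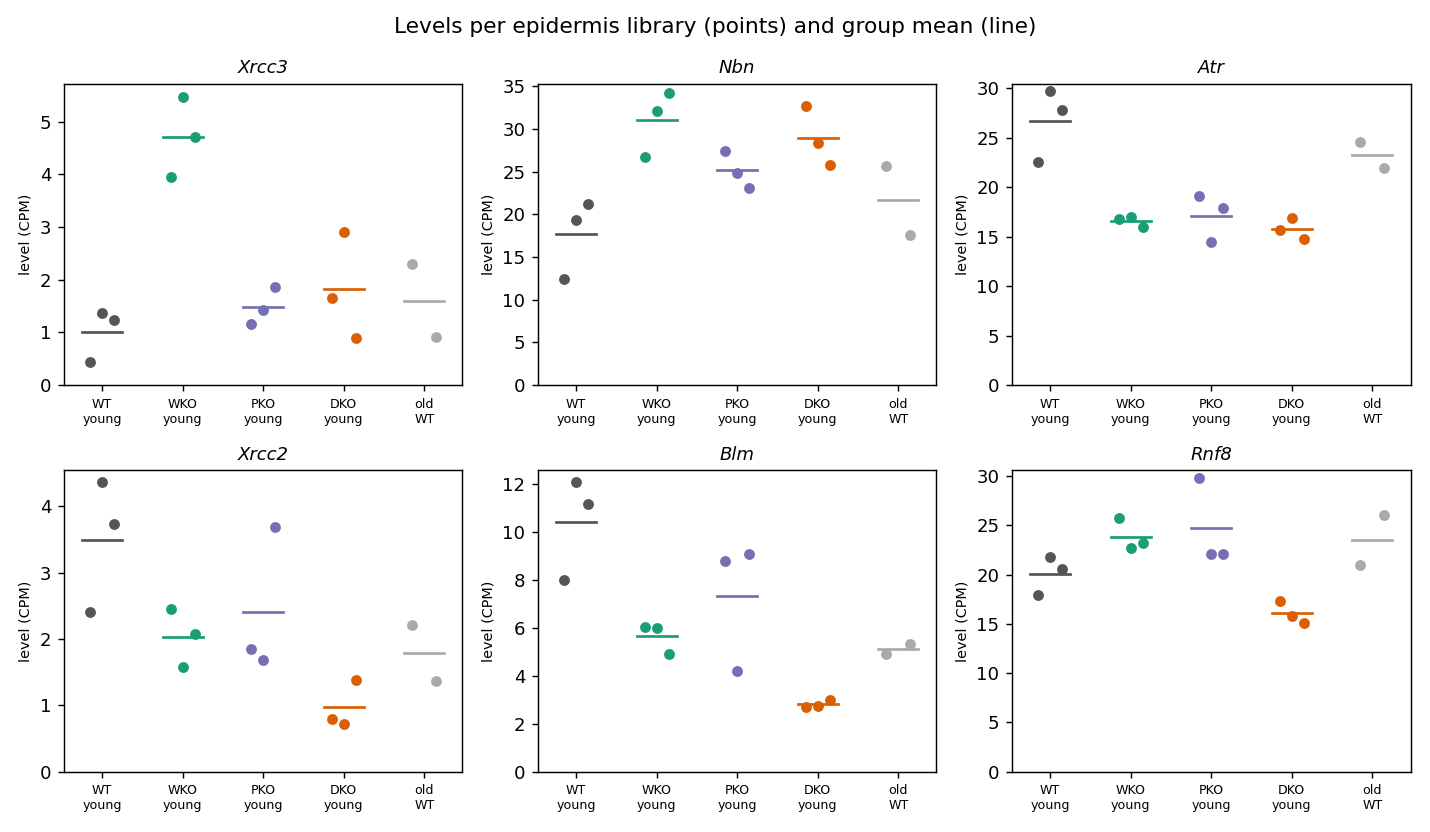
CPM (vertical axes) of 6 members in every epidermis library by group, with points for libraries and lines for group means. Xrcc3 is high in WKO young, Atr is below every WT library in all 9 WKO, PKO and DKO young libraries, and Xrcc2 and Blm are low in DKO young.

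PKO young epidermis had no member called against WT young by edgeR or DESeq2, where 0.0165% of all genes were called. At an unadjusted p under 0.05 there were 3 members against 18.9% of all genes. Atr stood at 19.1, 14.5 and 17.8 CPM, with a log2 change of -0.64 (standard error 0.22, adjusted p = 0.151). Nbn stood at 27.5, 24.9 and 23.2 CPM, with a log2 change of 0.51 (standard error 0.21, adjusted p = 0.213). Atm, the kinase that starts the break response, stood at 26.3, 38.4 and 39.2 CPM against 43.8, 59.8 and 49.7 in WT young, with a log2 change of -0.56 (standard error 0.24, adjusted p = 0.216).

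DKO young epidermis had 4 members called against WT young, where 10.5% of all genes rose and 6.79% fell, 17.3% in all. Nbn rose, and Xrcc2, Blm and Atr fell. Xrcc2 stood at 0.794 and 0.726 CPM in DKO young 1 and 2, 1.39 CPM in the library labelled DKO young 3, and 2.40, 4.36 and 3.72 CPM in WT young. On the log2 scale the change was -1.85 ± 0.43 (SE, adjusted p = 0.0111), from 10 to 14 counts a library in DKO. Blm stood at 2.71 to 2.98 CPM against 8.02, 12.1 and 11.2 CPM, with a log2 change of -1.89 (standard error 0.51, adjusted p = 0.0214). The groups did not overlap for these genes, and the 3 DKO libraries were close together for Blm.

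Atr stood at 15.6 and 16.9 CPM in DKO young 1 and 2 and 14.8 CPM in the library labelled DKO young 3, with a log2 change of -0.76 (standard error 0.22, adjusted p = 0.0315). Nbn stood at 32.7 and 28.4 CPM in DKO young 1 and 2 and 25.8 CPM in the library labelled DKO young 3, with a log2 change of 0.71 (standard error 0.21, adjusted p = 0.0332). In each case the DKO libraries lay on 1 side of all 3 WT libraries. At an unadjusted p under 0.05 there were 11 members against 33.1% of all genes. In 2 members every DKO library was above and in 8 below every WT library, against 22.3% and 24.2% of all genes. The members' median was -0.31 against -0.05 over all genes. DESeq2 called 1 member higher and 6 lower, and the share of all genes that it called is not given here.

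No call in DKO young was left without DKO young 1, 1 was left without DKO young 2 or without WT young 2, and 2 were left without WT young 3 or without the library labelled DKO young 3. Cell makeup moved with these comparisons, which share the WT young libraries. The 7 basal keratinocyte markers added up to 1568 to 2775 CPM in WT young and 10757 to 19356 in WKO and DKO young, with none of the 7 at 0 in any library. Differentiated keratinocyte markers took 423.1 to 952.7 CPM in WT young and 6535 to 13936 in WKO and DKO young. In PKO young 1, 2 and 3 the basal markers took 14525, 14006 and 2778 CPM, the differentiated ones 2457, 10768 and 959.8, and the T cell ones 687.2, 241.1 and 3251, so PKO young 3 stood apart. T cell markers took 1452 to 1901 CPM in WT young, 44.2 to 858.4 in WKO young and 79.0 to 282.0 in DKO young. Erythrocyte markers added up to 829.9 to 3498 CPM in WT young and 2.83 to 32.5 in WKO and DKO young. WT young 1 had 25.2 CPM of Eif2s3y and 0.218 CPM of Xist, unlike the other epidermis libraries. The part of these markers in the results on young epidermis was not tested.

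DKO against PKO young epidermis gave no call by edgeR or DESeq2, where 0% of all genes were called, and 7 members had an unadjusted p under 0.05 against 11.2% of all genes. Rnf8 stood at 17.3 and 15.8 CPM in DKO young 1 and 2, 15.1 CPM in the library labelled DKO young 3, and 29.8, 22.1 and 22.1 CPM in PKO young. The change came to a log2 value of -0.62 ± 0.17 (SE, adjusted p = 0.394). Xrcc2 had a log2 change of -1.32 (standard error 0.43, adjusted p = 0.394) and Blm one of -1.39 ± 0.51 (SE, adjusted p = 0.398). All 3 genes, named for having the smallest p, were lower in every DKO library than in every PKO library. Of all genes, 6.71% were lower and 8.62% higher in this way.

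Old and young WT epidermis were compared for age. Neither edgeR nor DESeq2 called a member between old and young WT, where 0.848% of all genes were called, and none had an unadjusted p under 0.05, where 18.7% of all genes did. The members' median log2 fold change was -0.22, and that over all genes was 0.00 after rounding. Xrcc2 stood at 2.22 and 1.37 CPM in old WT, with a log2 change of -0.96 (standard error 0.47, adjusted p = 0.291). Trp53bp1 stood at 65.5 and 64.8 CPM against 42.6, 58.3 and 46.4, with a log2 change of 0.41 (standard error 0.20, adjusted p = 0.295). Bard1, the partner of Brca1, stood at 3.12 and 1.90 CPM against 3.60, 7.35 and 6.26, with a log2 change of -1.19 (standard error 0.62, adjusted p = 0.315). For each of these 3 genes, named for having the smallest p, the old libraries lay on 1 side of the young ones. With only 2 old libraries, 19.1% of all genes were higher and 20.8% lower in every old than in every young library. Cell makeup and sex genes differed too. T cell markers took 128.4 and 271.7 CPM in old WT against 1452 to 1901 in young WT, erythrocyte markers 16.5 and 64.1 against 829.9 to 3498, and basal keratinocyte markers 10048 and 3108 against 1568 to 2775. Eif2s3y was at 0 in both old libraries and at 25.2 CPM in WT young 1. Their part in this comparison was not tested.

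Other repair genes, 71 outside the 34, were read from a list that covers further recombination, Fanconi, replication and checkpoint genes. In PKO cSCC against old WT 14 rose and 2 fell, where 10.5% and 10.9% of all genes did. H2afx, the histone variant phosphorylated at breaks, rose by 2.53 ± 0.51 on the log2 scale (SE, adjusted p = 0.00478), from 10.7 ± 0.419 (SD, n = 2) to 62.0 ± 40.5 CPM (SD, n = 3). Rpa2, a subunit of the cover of single-stranded DNA, rose by 1.58 ± 0.39 (SE, adjusted p = 0.0117), and Zgrf1, a helicase, fell by 1.54 ± 0.36 (SE, adjusted p = 0.0101).

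In DKO cSCC against old WT 2 of the 71 rose, H2afx and Sem1, and none fell, where 2.48% and 1.86% of all genes did. Against young epidermis of their own genotype, 7 rose and 1 fell in PKO cSCC, where 5.33% and 6.16% of all genes did. In DKO cSCC 6 rose and none fell, where 3.27% and 4.03% of all genes did. Timeless, which steadies the replication fork, rose in PKO by 1.62 ± 0.46 on the log2 scale (SE, adjusted p = 0.0324) and in DKO by 2.25 ± 0.47 (SE, adjusted p = 0.0110). Medians over the 71 were 0.30, 0.22, 0.29 and 0.39 in these 4 comparisons.

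In DKO young against WT young 2 of the 71 rose and 6 fell, where 10.5% of all genes rose and 6.79% fell, so the falls are near that background and the rises below it. Dna2, a nuclease that acts with Blm in resection, fell by 2.95 ± 0.66 on the log2 scale (SE, adjusted p = 0.00955), from 10.9 ± 2.17 to 1.41 ± 0.707 CPM (SD, n = 3 each). Slx4, a scaffold for nucleases, fell in DKO young by 0.81 ± 0.18 (SE, adjusted p = 0.0101) and in WKO young by 0.92 ± 0.18 (SE, adjusted p = 0.0134). In WKO young 2 of the 71 rose, Wee1 and Lig3, and Slx4 was the 1 that fell, both below the 7.9% and 4.21% of all genes. In the other 5 comparisons edgeR called no gene of the 71, where 0% to 0.848% of all genes were called. At an unadjusted p under 0.05 there were 4 to 8 of the 71, where 11.2% to 18.9% of all genes did so.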

How the data were processed

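The 20 libraries of tdTomato-positive cells each used 5 ng of total RNA and a strand-keeping kit, per the labels' protocols. The authors deposited a table of estimated counts (expected counts), all whole numbers, for 51123 gene identifiers. Per the submitters' processing notes, which give no roles, the tools were Salmon 0.13.1, Trim Galore 0.4.1, FastQC 0.11.5 and DESeq2 1.28.1, and the build was mm39. Use of molecular identifiers, the annotation release and the summing to genes are not given in the sources used here, and Salmon splits reads of near-identical copies by estimation. Symbols for 48246 identifiers and exon lengths came from GENCODE for GRCm38, another build, so no coordinates are given beyond the RefSeq promoters.

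All 20 libraries entered 1 fit of 7 group means in edgeR 4.0.16 (R 4.3.3), with TMM scaling, filterByExpr (18164 genes kept), the quasi-likelihood F test and Benjamini-Hochberg adjustment over all genes at 0.05. Every adjusted p in the text is from this test unless DESeq2 is named. Levels are counts scaled to library size (CPM) after TMM scaling. The standard error is the log2 fold change divided by the root of F, and intervals are at 95%. The labels number the samples of a group as biological replicates without naming animals, so p-values measure the spread between these samples. The step was tested on simulated data.

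The members, gene lists and tests were chosen with earlier results of these data known. Full statistics are given for up to 8 members called per comparison with the smallest p, or, where under 3 were called, for the 3 with the smallest p. Alternatives were RLE scaling, no low-count filter, DESeq2 1.42.0, a fit of only the libraries compared, a replicate block, a cell cycle covariate (mean log2 CPM of 56 genes), fits without doubted libraries and leaving out each library. The result on a further gene of the list of other repair genes is not reported here.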

Additional observations from a re-analysis of the deposited data

How the results depend on the processing

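Counts of members called are given in the order PKO cSCC against old WT, DKO cSCC against old WT, PKO cSCC against PKO young, DKO cSCC against DKO young, WKO against WT young and DKO against WT young (7, 0, 3, 8, 2 and 4). Shares of all genes called in the other runs are not given here except where stated, so these counts are not set against a background. With no low-count filter they were 4, 1, 1, 9, 1 and 2. With DESeq2 they were 9, 6, 7, 15, 3 and 7. In fits of fewer groups they were 0, 0, 1, 4, 3 and 6, and for PKO cSCC against old WT such a fit called 2 of all 16526 genes. These fits held the 8 tumour and old WT libraries, the 12 PKO and DKO libraries or the 12 young libraries. Without the libraries labelled DKO young 3 and DKO cSCC 3 they were 7, 5, 4, 7, 3 and 4. With the cell cycle covariate they were 0, 0, 0, 0, 3 and 3. Leaving out 1 library at a time gave 0 to 7, 0 to 5, 0 to 6, 0 to 12, 0 to 2 and 0 to 4, and a lone old WT library was assumed to vary like the other groups. RLE scaling gave 6, 0, 4 (3 higher and 1 lower), 8, 3 (2 higher and 1 lower) and 4. Without PKO young 2 and 3, chosen after seeing the data, PKO cSCC against PKO young had 1. The other 5 comparisons stayed at 0 in every alternative run. The covariate turned the log2 fold changes of Clspn (-0.57), Brca1 (-0.75) and Rad54l (-0.38) in PKO cSCC against old WT, of Clspn (-0.083) in DKO cSCC against old WT, and of Blm (-0.18) in DKO cSCC against DKO young. For Xrcc5 in DKO against PKO cSCC, leaving out 1 library gave -0.85 to 0.033. The causes of these changes were not tested. Same-numbered samples did not deviate together on average (mean r -0.05 over 57 pairs, against 0.03 over 114 pairs of other numbers). Single pairs reached 0.34 and 0.53 in the same order, so the means cannot exclude a batch or animal shared by some samples. With the replicate block the counts were 5, 0, 3, 6, 2 and 3. Low counts limit Rad51ap1, Xrcc2, Xrcc3 and Fancb most, Fancb having 2 counts in PKO young 1.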

Other observations

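Target genes of p53 were read beside the repair genes, from a list of 30 that includes Mdm2, the ubiquitin ligase of p53, and the stress genes Sesn2 and Btg2. In DKO young epidermis against WT young 7 of the 30 rose and 2 fell, where 10.5% of all genes rose and 6.79% fell. In WKO young, where Trp53 was at 38.8 to 48.5 CPM, 5 rose and 1 fell, where 7.9% of all genes rose and 4.21% fell. The list summed to 1021 to 1134 CPM in WT young, 2533 to 3045 in WKO young and 3308 to 4156 in DKO young. Basal keratinocyte markers were higher in the same libraries, at 1568 to 2775 CPM in WT young and 10757 to 19356 in WKO and DKO young, and their part was not tested. Sesn2 stood at 75.0 and 55.7 CPM in DKO young 1 and 2, 80.6 in the library labelled DKO young 3, and 17.4 to 18.9 CPM in WT young, a log2 change of 1.94 (standard error 0.39, adjusted p = 0.00658, edgeR). Mdm2 stood at 121.3 and 97.6 CPM in DKO young 1 and 2 and 101.0 in the library labelled DKO young 3, against 33.5 to 52.2 CPM in WT young. DKO young 1 and 2, in which Trp53 was at 3.31 and 3.27 CPM, were above every WT young library in both genes. In the 6 carcinomas Mdm2 was at 19.0 to 33.3 CPM and Btg2 at 26.4 to 67.9 CPM, and Btg2 was at 380.5 to 573.0 CPM in the 3 DKO young libraries. Among PKO young libraries Sesn2 was at 73.1 CPM in library 2 and at 19.1 and 29.0 CPM in libraries 1 and 3.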
